A study of Mus musculus with 11 samples.

Results

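The 10 genes described here, which neutrophils transcribe to fill their granules and cytosol, were followed through RNA sequencing of primary bone marrow stromal cell cultures of the mouse. The members were chosen by name, and all 10 were found in both deposited tables, which list 19259 genes for the ANXA2 knockout and 19801 genes for the ANXA5 knockout. They divide into 4 primary granule genes (Mpo, Elane, Prtn3 and Ctsg), 4 secondary granule genes (Camp, Ltf, Ngp and Lcn2) and 2 genes of cytosolic proteins (S100a8 and S100a9). The groups were untreated mesenchymal stromal cells with a knockout of ANXA2 (3 libraries), with a knockout of ANXA5 (4 libraries) and of wild type C57/BL6 mice (4 libraries). Mesenchymal stromal cells are the adherent cells of the marrow that can form bone, fat and cartilage. The labels do not say whether replicates came from different mice or dishes, so every p-value measures only how these libraries spread, in part perhaps for technical reasons. Nor do they give the part of a gene that was removed, the age or sex of the mice or the passage of the cells.

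Neutrophils are short-lived phagocytes that the bone marrow makes in large numbers. Their precursors fill granules in waves: primary granules at the promyelocyte stage, with myeloperoxidase and serine proteases, and secondary granules at the later myelocyte stage, with antimicrobial and iron-binding proteins. Transcripts of granule proteins thus mark developing neutrophils in the marrow, while mature neutrophils carry the proteins with less of the RNA. S100a8 and S100a9 pair to form calprotectin, the most abundant protein of the neutrophil cytosol.

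The 250 bases upstream of the annotated start are shown for the 4 primary granule genes, which had the highest fold changes in the ANXA5 knockout. All 4 hold GAGGAA, read on both strands and with no other motif overlapping it, which is a form of the core that the myeloid factor PU.1 binds. It is in capitals here, and the sequences, 5′ to 3′ in the direction of the gene, are those of RefSeq on GRCm38.p6, which is not the build of the count tables.
Mpo, chr11:87793534-87793783, plus strand: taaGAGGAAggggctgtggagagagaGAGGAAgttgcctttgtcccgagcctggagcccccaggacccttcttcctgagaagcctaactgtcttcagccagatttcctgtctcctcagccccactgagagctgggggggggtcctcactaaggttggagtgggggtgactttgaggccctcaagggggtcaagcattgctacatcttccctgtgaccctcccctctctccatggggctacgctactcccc
Elane, chr10:79886062-79886311, plus strand: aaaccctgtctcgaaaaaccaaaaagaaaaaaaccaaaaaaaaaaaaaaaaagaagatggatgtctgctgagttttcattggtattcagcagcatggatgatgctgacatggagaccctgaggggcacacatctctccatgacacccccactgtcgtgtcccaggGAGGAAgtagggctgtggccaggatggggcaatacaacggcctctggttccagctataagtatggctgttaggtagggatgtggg
Prtn3, chr10:79879417-79879666, plus strand: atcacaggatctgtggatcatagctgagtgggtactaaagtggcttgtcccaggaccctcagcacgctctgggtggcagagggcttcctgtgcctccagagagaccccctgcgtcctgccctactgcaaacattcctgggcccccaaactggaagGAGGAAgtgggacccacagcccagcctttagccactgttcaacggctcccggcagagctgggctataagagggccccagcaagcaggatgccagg
Ctsg, chr14:56102575-56102824, minus strand: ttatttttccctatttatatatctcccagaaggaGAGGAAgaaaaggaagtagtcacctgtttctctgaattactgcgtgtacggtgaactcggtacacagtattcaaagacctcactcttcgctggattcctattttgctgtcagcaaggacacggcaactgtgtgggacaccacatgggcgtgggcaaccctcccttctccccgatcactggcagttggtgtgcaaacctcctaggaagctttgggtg
GAGGAA or its reverse complement was present in 7 of the 10 members and in 23.3% of 32851 mouse promoters of the same length. The upstream sequence of Ngp, the member with the most normalised reads, holds TTGNNNAA, a form of the pattern read by C/EBP factors, at 4 places, in capitals.
Ngp, chr9:110419558-110419807, plus strand: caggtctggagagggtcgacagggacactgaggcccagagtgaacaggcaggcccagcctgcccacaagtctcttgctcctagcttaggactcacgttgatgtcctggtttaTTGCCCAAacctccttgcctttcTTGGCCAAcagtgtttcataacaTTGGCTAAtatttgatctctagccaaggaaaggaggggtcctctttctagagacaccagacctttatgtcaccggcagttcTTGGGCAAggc
TTGNNNAA on either strand was present in 4 of the 10 members and in 33.3% of all promoters. TATAAA, read on both strands, was present in 2 of the 10 members, in S100a8 and, as its reverse complement, in Ctsg, and in 12.4% of all promoters. These are matches of letters, and no binding was measured.

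Library depth was 23.3 to 35.7 M reads over the genes of the tables. The targets were low in their own knockouts. Anxa2 averaged 8542 ± 1691 normalised reads in ANXA2 knockout libraries (SD, n = 3) and 29822 ± 1354 in wild type libraries (SD, n = 4; log2 -1.82, limma adjusted p = 0.001915). Anxa5 averaged 2359 ± 57.4 in ANXA5 knockout libraries and 25529 ± 1704 in wild type libraries (SD, n = 4 each; log2 -3.43, limma adjusted p = 1.911e-08). A normalised read is a read count divided by the size factor of its library. All 11 stromal markers listed were found in every library, but so was nearly every gene listed for either knockout. Being found thus does not single out a cell type. The highest stromal marker, Col3a1, averaged 921649 ± 211062 normalised reads in ANXA2 knockout libraries, 952077 ± 153800 in ANXA5 knockout libraries and 817397 ± 218407 in wild type libraries. The 11 markers summed to 1343375 to 2076518 in ANXA2 knockout, 1377039 to 2002569 in ANXA5 knockout and 1014273 to 1774666 in wild type libraries. These sums were mostly collagen reads, with Col1a1 means of 392983 in ANXA2 knockout, 351608 in ANXA5 knockout and 260647 in wild type libraries. Thy1, the lowest of the 11, went down to 468 normalised reads as scaled with the ANXA2 knockout. By amount, the cultures thus carried mainly collagens among the stromal markers, beside the neutrophil transcripts. In bulk samples, fewer cells of a type and less RNA per cell cannot be told apart.

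Per kilobase of exon, several of the granule genes were among the most abundant transcripts of these stromal cultures. On that scale Ngp, a cystatin-like granule protein of the mouse, ranked 3 of all genes in ANXA2 knockout cultures, 2 in ANXA5 knockout cultures and 2 in wild type cultures. S100a9 ranked 2 in ANXA2 knockout, 3 in ANXA5 knockout and 3 in wild type cultures, and S100a8 ranked 8 in ANXA2 knockout, 6 in ANXA5 knockout and 10 in wild type cultures. These are the subunits of calprotectin. Camp, the precursor of the antimicrobial peptide cathelicidin, ranked 14 in ANXA2 knockout, 13 in ANXA5 knockout and 18 in wild type cultures. Ltf, the iron-binding lactoferrin, ranked 24 in ANXA2 knockout, 20 in ANXA5 knockout and 24 in wild type cultures. The primary granule genes came later. Elane ranked 54 in ANXA2 knockout, 32 in ANXA5 knockout and 62 in wild type cultures, and Mpo ranked 61 in ANXA2 knockout, 36 in ANXA5 knockout and 61 in wild type cultures. Lcn2, which binds bacterial siderophores, ranked 104 in ANXA2 knockout, 77 in ANXA5 knockout and 124 in wild type cultures. Prtn3 ranked 434 in ANXA2 knockout, 292 in ANXA5 knockout and 446 in wild type cultures, and Ctsg ranked 750 in ANXA2 knockout, 461 in ANXA5 knockout and 719 in wild type cultures. The order was thus led by secondary and cytosolic genes, with 2 of the primary granule proteases at its end.

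In wild type cultures the levels in normalised reads per kilobase spanned a wide range. Ngp stood at 106266 ± 21790 and S100a9 at 104544 ± 36140 (SD, n = 4 here and below). The mean ± SD of these neighbours overlapped. S100a8 followed at 46797 ± 19029, Camp at 32678 ± 13717 and Ltf at 24425 ± 5456. The mean ± SD overlapped between S100a8 and Camp and between Camp and Ltf. It also overlapped between Mpo at 12708 ± 4789 and Elane at 12271 ± 5563, and between Elane and Lcn2 at 7167 ± 2066. Prtn3 at 2320 ± 681 and Ctsg at 1547 ± 516 overlapped as well. The mean ± SD did not overlap between S100a9 and S100a8, between Ltf and Mpo, and between Lcn2 and Prtn3.

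Reads of the 10 genes together made up 0.933, 1.47 and 2.54% of all reads in ANXA2 knockout libraries 1, 3 and 4. In ANXA5 knockout libraries 1 to 4 the share was 1.76, 2.26, 1.78 and 1.99%, and in wild type libraries 1 to 4 it was 1.21, 1.49, 1.18 and 2.04%. ANXA2 knockout libraries carry the numbers of their columns, which are not those of their titles. The lowest and the highest share of all 11 libraries were both in the ANXA2 knockout, and wild type library 4 stood above the other wild type libraries.

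The ANXA5 knockout was set against the wild type to ask whether loss of this annexin, a protein that binds phospholipid membranes with calcium, went with a change of transcripts. All 10 granule genes had a fold change above 0 in the ANXA5 knockout, as did 52% of all genes tested, and the primary granule genes had higher fold changes than the secondary and cytosolic ones. None of the 10 passed the test after adjustment over all genes (limma on log2 of the value + 1, Benjamini-Hochberg adjusted p under 0.05), against 0.0308% of all genes. At an unadjusted p under 0.05, 5 of the 10 were higher in the knockout, against 6.48% of all genes that were higher at that level and 11.9% in either direction. These 5 were the 4 primary granule genes and Lcn2. The 10 genes were high and low in much the same libraries, so these counts are not independent results.

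Mpo, the enzyme that makes hypochlorous acid in the phagosome, stood at 62706, 70611, 68017 and 83698 normalised reads in ANXA5 knockout libraries 1 to 4, against 32901, 35156, 40956 and 69203 in wild type libraries 1 to 4. The groups overlapped through wild type library 4 alone, which lay above knockout libraries 1 and 3. The log2 fold change was 0.74 (95% interval 0.23 to 1.25, SE 0.23, limma adjusted p = 0.3054). Elane, neutrophil elastase, stood at 18256, 21738, 21825 and 22481 in the knockout libraries, against 8411, 10073, 10302 and 20665 in the wild type. Here 3 of 4 knockout libraries lay above every wild type library, and knockout library 1 lay below wild type library 4. Elane had the highest log2 fold change of the members, 0.86 (95% interval 0.32 to 1.40, SE 0.24, limma adjusted p = 0.2732).

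Prtn3, the elastase-related proteinase 3, stood at 5650, 6096, 7049 and 6373 normalised reads in ANXA5 knockout libraries 1 to 4, against 3474, 3946, 3182 and 5856 in wild type libraries 1 to 4. Its log2 fold change of 0.65 (95% interval 0.27 to 1.03, SE 0.17) came with the smallest p of the members (unadjusted 0.003689, limma adjusted p = 0.2515). Again 3 of 4 knockout libraries exceeded every wild type library. Ctsg, the granule protease cathepsin G, stood at 1999, 2499, 2586 and 2400 in the knockout libraries, against 1424, 1669, 1082 and 2367 in the wild type. The pattern was that of Elane and Prtn3, and the log2 fold change was 0.59 (95% interval 0.13 to 1.04, SE 0.20, limma adjusted p = 0.3355). Every knockout library of the 4 primary granule genes was above the median of the wild type libraries.

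**Figure D1:**
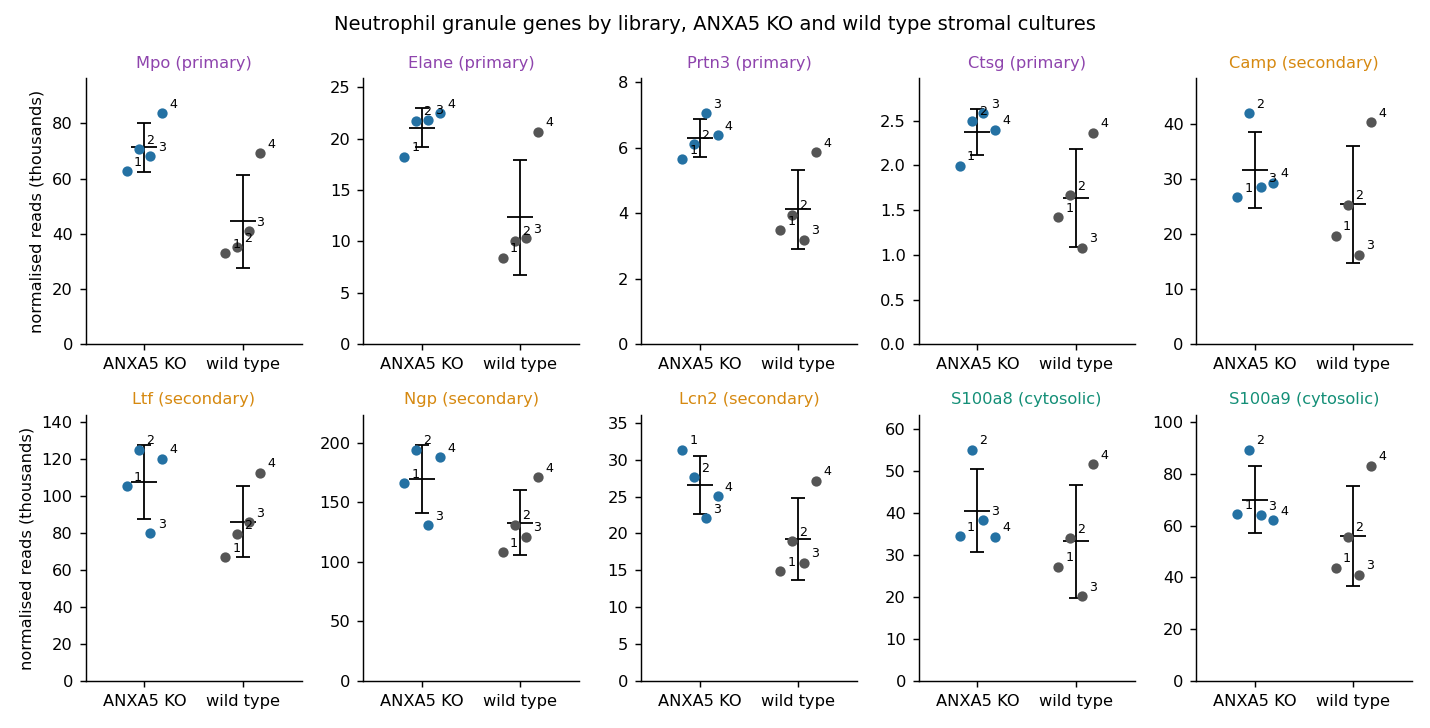
Normalised reads (in units of 1000, linear axes from 0) of the 10 granule genes in the 4 ANXA5 knockout libraries (left in each panel) and the 4 wild type libraries (right). Points are libraries with their numbers, and the bars show the mean ± SD. For Mpo, Elane, Prtn3 and Ctsg the knockout libraries lie together near wild type library 4, and the other 3 wild type libraries lie below them all.

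The secondary granule genes overlapped more between the groups. Lcn2 stood at 31334, 27642, 22083 and 25052 normalised reads in ANXA5 knockout libraries 1 to 4, against 14864, 18948, 16036 and 27138 in wild type libraries 1 to 4. Only knockout libraries 1 and 2 lay above every wild type library, and the log2 fold change was 0.49 (95% interval 0.07 to 0.92, SE 0.19, limma adjusted p = 0.371). Ngp stood at 166080, 194083, 130679 and 187909 in the knockout libraries, against 108245, 131112, 121223 and 171254 in the wild type. Knockout library 3 lay just below wild type library 2, and the log2 fold change was 0.36 (95% interval -0.12 to 0.84, SE 0.21). Ltf stood at 105378, 125168, 80149 and 120333 in the knockout libraries, against 67040, 79415, 85991 and 112724 in the wild type. Knockout library 3 was the lowest of its group for Ltf, Ngp and Lcn2. Ltf had a log2 fold change of 0.33 (95% interval -0.15 to 0.80, SE 0.21). Camp stood at 26683, 41885, 28440 and 29242 in the knockout libraries, against 19673, 25247, 16219 and 40272 in the wild type. For Camp both groups had 1 library far above the rest, and the log2 fold change was 0.38 (95% interval -0.21 to 0.97, SE 0.26).

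The cytosolic pair resembled Camp. S100a8 stood at 34399, 55025, 38196 and 34303 normalised reads in ANXA5 knockout libraries 1 to 4, against 27216, 33908, 20196 and 51637 in wild type libraries 1 to 4. S100a9 stood at 64359, 89230, 63877 and 62025 in the knockout libraries, against 43680, 55613, 41021 and 83136 in the wild type. In both genes knockout library 2 and wild type library 4 stood above the rest, and the other knockout libraries lay between them and the other wild type libraries. The log2 fold changes were 0.34 for S100a8 (95% interval -0.26 to 0.95, SE 0.27) and 0.36 for S100a9 (95% interval -0.15 to 0.88, SE 0.23). Limma adjusted p-values of the 5 members with an unadjusted p above 0.05 were 0.5248 to 0.6213.

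The median log2 fold change in the ANXA5 knockout was 0.69 for the 4 primary granule genes, 0.37 for the 4 secondary granule genes and 0.35 for S100a8 and S100a9, beside 0.01 for all 16224 genes tested. All 10 members overlapped between the groups, while 6.37% of all genes did not. With edgeR, 0 members passed (0.0308% of genes) and 5 had an unadjusted p under 0.05 (12% of genes). With DESeq2, 0 passed (1.7% of genes) and 6 had an unadjusted p under 0.05 (12.9% of genes), with a smallest adjusted p of 0.07092. The authors' deposited table gave 0 members with an adjusted p under 0.05 (1.76% of genes) and 6 with an unadjusted one (13.1% of genes). The smallest adjusted p of a member in the authors' deposited table was 0.06946 for Prtn3.

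The result in the ANXA5 knockout changed most without wild type library 4, and the other libraries are given below. Without wild type library 4, 2 of the 10 members passed, against 0.194% of all genes, and the unadjusted p was under 0.05 for 10 of 10, beside 17.9% of all genes. Those that passed were Elane (log2 1.14, 95% interval 0.87 to 1.41, limma adjusted p = 0.01737) and Prtn3 (log2 0.83, 95% interval 0.59 to 1.08, limma adjusted p = 0.03604). Mpo followed at 0.97 (limma adjusted p = 0.05659), and the median of the 10 was 0.65 in place of 0.44. Without any other single library, 0 members passed, and the median was 0.33 (without wild type library 1) to 0.51 (without knockout library 3). The unadjusted p was then under 0.05 for 4 to 7 members, beside 1285 to 1994 of all genes. The smallest limma adjusted p of a member was 0.3226 to 0.5592, in place of 0.2515 with all libraries. Wild type library 4 was the highest wild type library for all 10 members in both tables, so the 10 results are not independent. No fault of this library is recorded in the labels, and it was kept.

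**Figure D2:**
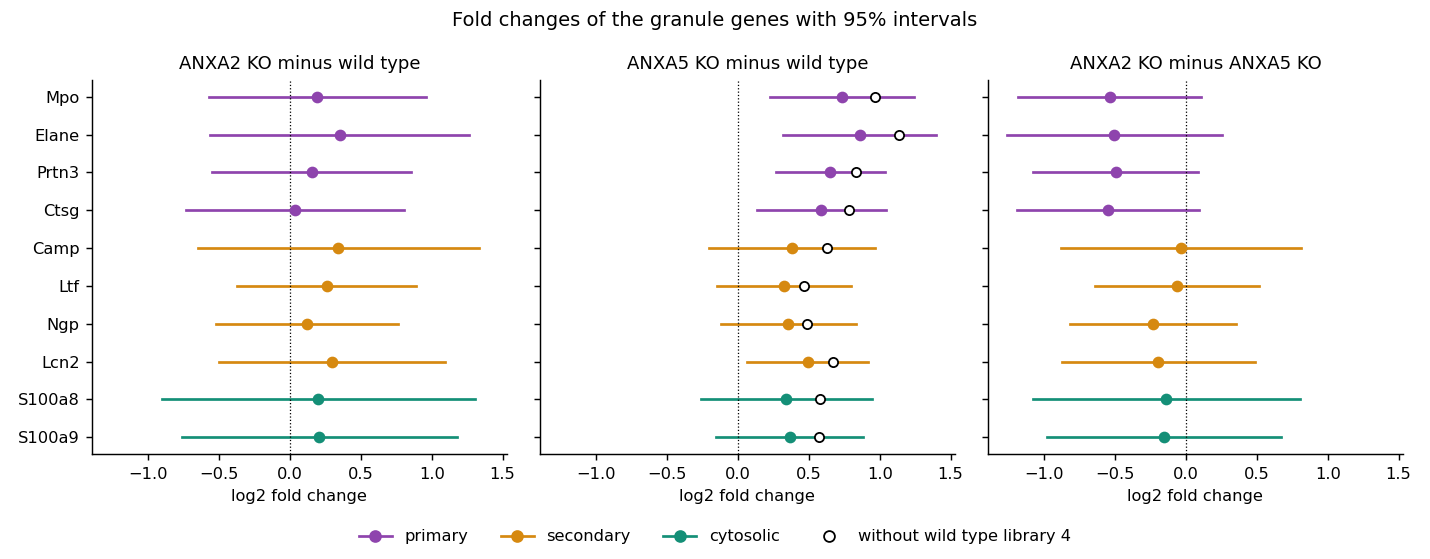
Log2 fold changes of the 10 granule genes (points) with 95% intervals (lines) for ANXA2 knockout minus wild type, ANXA5 knockout minus wild type and ANXA2 knockout minus ANXA5 knockout, coloured by granule class. Open points are the ANXA5 values without wild type library 4. In the middle panel the intervals of the 4 primary granule genes and of Lcn2 lie above 0, and in the outer panels every interval spans 0.

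The ANXA2 knockout was compared with the same wild type libraries, scaled in a table of their own. Its 3 libraries spread widely, and the 95% interval of every granule gene spanned 0. None of the 10 passed the test (limma, against 0.112% of all genes), and none had an unadjusted p under 0.05 (8.69% of genes). None passed with edgeR (0.13% of genes) or DESeq2 (0.68% of genes) or had an adjusted p under 0.05 in the authors' deposited table (0.593% of genes), and 0 had an unadjusted p under 0.05 with edgeR (8.48% of genes), with DESeq2 (9.29% of genes) or in the authors' deposited table (8.89% of genes). All 10 fold changes were above 0, against 54.1% of all genes, and all 10 overlapped between the groups, while 9.19% of all genes did not.

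Mpo stood at 27723, 50564 and 62217 normalised reads in ANXA2 knockout libraries 1, 3 and 4, against 30083, 32119, 37082 and 63110 in wild type libraries 1 to 4. Elane stood at 7434, 14360 and 22861 in the knockout libraries, against 7691, 9203, 9328 and 18845 in the wild type. Both groups covered a similar range. The log2 fold changes were 0.19 for Mpo (95% interval -0.57 to 0.96, SE 0.34, limma adjusted p = 0.8792) and 0.35 for Elane (95% interval -0.56 to 1.26, SE 0.40, limma adjusted p = 0.8027). Prtn3 stood at 2604, 3927 and 6493 in the knockout libraries, against 3176, 3605, 2881 and 5340 in the wild type. Ctsg stood at 909, 1467 and 2368 in the knockout libraries, against 1302, 1524, 979 and 2159 in the wild type. For both proteases knockout library 1 was the lowest and knockout library 4 the highest of the 7 libraries, with log2 fold changes of 0.15 (95% interval -0.55 to 0.85) for Prtn3 and 0.04 (95% interval -0.73 to 0.80) for Ctsg.

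**Figure D3:**
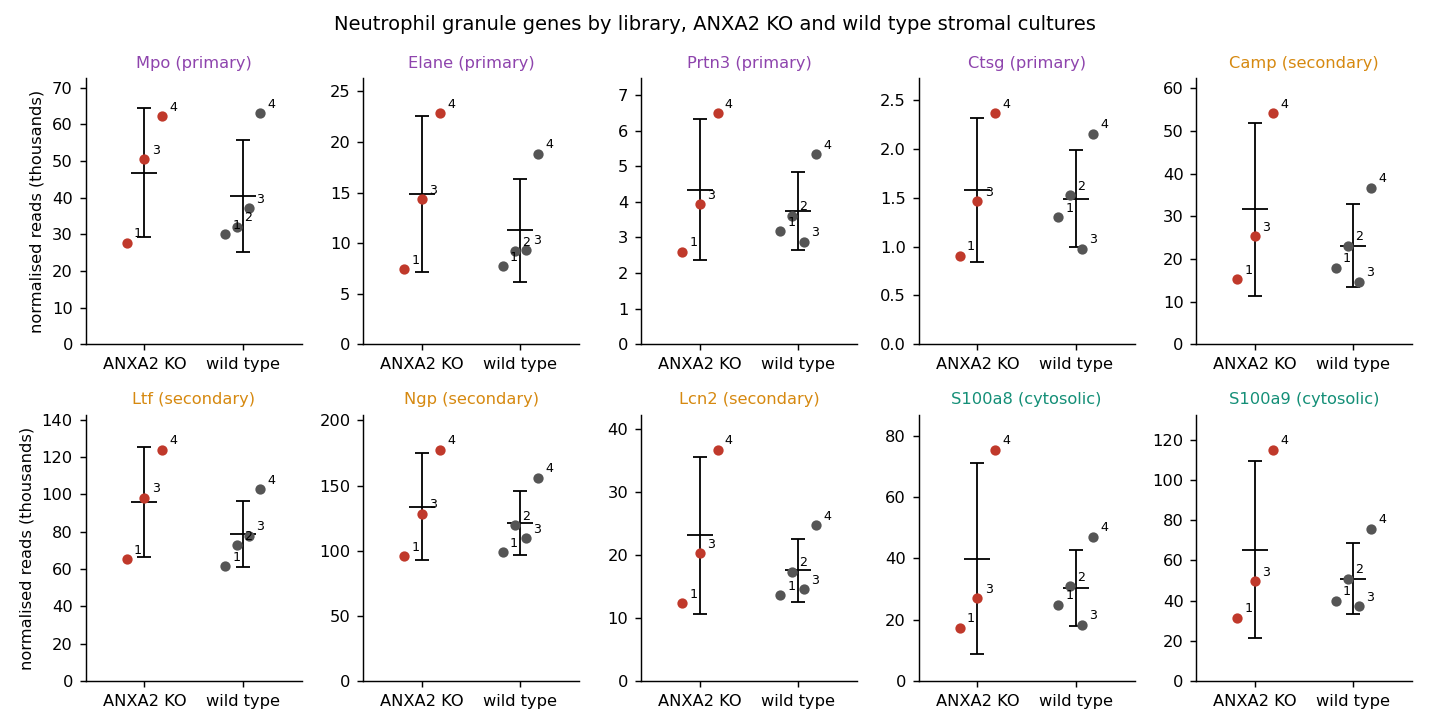
Normalised reads (in units of 1000, linear axes from 0) of the 10 granule genes in the 3 ANXA2 knockout libraries (left in each panel) and the 4 wild type libraries (right). Points are libraries with their numbers, and the bars show the mean ± SD. Knockout library 1 is the lowest and knockout library 4 the highest of its group in all 10 panels, and the ranges of the groups overlap in each.

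The secondary granule genes showed the same span. Camp stood at 15216, 25403 and 54226 normalised reads in ANXA2 knockout libraries 1, 3 and 4, against 17988, 23066, 14685 and 36726 in wild type libraries 1 to 4. Its log2 fold change was 0.34 (95% interval -0.65 to 1.33, SE 0.44). Lcn2 stood at 12300, 20275 and 36693 in the knockout libraries, against 13591, 17311, 14519 and 24749 in the wild type. Its log2 fold change was 0.29 (95% interval -0.50 to 1.09, SE 0.35). Ltf stood at 65065, 98039 and 123803 in the knockout libraries, against 61299, 72554, 77858 and 102799 in the wild type, with a log2 fold change of 0.26 (95% interval -0.37 to 0.89, SE 0.28). It had the smallest adjusted p of the members, 0.7808 by limma. Ngp stood at 95745, 128407 and 177492 in the knockout libraries, against 98975, 119784, 109759 and 156176 in the wild type, with a log2 fold change of 0.12 (95% interval -0.52 to 0.76, SE 0.28). Knockout library 4 was above every wild type library for all 4 genes.

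S100a8 stood at 17330, 27003 and 75391 normalised reads in ANXA2 knockout libraries 1, 3 and 4, against 24885, 30978, 18286 and 47090 in wild type libraries 1 to 4. S100a9 stood at 31367, 49711 and 115029 in the knockout libraries, against 39939, 50808, 37142 and 75817 in the wild type. For both genes the highest library was knockout library 4 and the lowest knockout library 1. The log2 fold changes were 0.20 for S100a8 (95% interval -0.90 to 1.30, SE 0.49) and 0.21 for S100a9 (95% interval -0.77 to 1.18, SE 0.43). Over the 10 members the median log2 fold change was 0.20, beside 0.02 for all 16123 genes tested. It was 0.31 with edgeR and 0.32 with DESeq2, where S100a8 had 0.39 and 0.40, S100a9 0.35 and 0.36, and Ctsg 0.07 and 0.08. Without ANXA2 knockout library 4 the median was -0.13 and 9 of the 10 fold changes were below 0, Ltf being the exception, and the median was 0.58 without knockout library 1 and 0.42 without wild type library 4.

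The spread among replicates was itself large for these genes. In ANXA2 knockout libraries the SD of the log2 values was 0.445 (Ngp) to 1.09 (S100a8), beside a median of 0.172 over the 5011 genes with a mean above 1000. In ANXA5 knockout libraries it was 0.133 (Prtn3) to 0.323 (S100a8), beside a median of 0.128, and in wild type libraries, as scaled with the ANXA2 knockout, it was 0.282 (Ngp) to 0.574 (S100a8), beside a median of 0.157. Between 92.2 and 99.9% of genes of that level varied less than the granule genes among ANXA2 knockout libraries. Elane, Prtn3, Ctsg and Mpo varied among ANXA5 knockout libraries about as much as other genes of that level, with 52.5 to 70.3% of genes below them.

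The effects of both knockouts were compared in a fit of all 11 libraries, scaled together. None of the 10 members passed the test for a difference between ANXA2 knockout and ANXA5 knockout cultures (limma, against 0.298% of all genes), none had an unadjusted p under 0.05 (13.6% of genes), and edgeR gave 0 on both counts (0.262% of genes passed and 13.9% had an unadjusted p under 0.05). The primary granule genes lay lower in the ANXA2 knockout, with wide intervals. Mpo averaged 50243 ± 18825 normalised reads in ANXA2 knockout libraries (SD, n = 3) and 69529 ± 8625 in ANXA5 knockout libraries (SD, n = 4), a log2 difference of -0.54 (95% interval -1.19 to 0.11, limma adjusted p = 0.4395). The other log2 differences of this class were -0.55 for Ctsg (95% interval -1.19 to 0.09), -0.51 for Elane (-1.26 to 0.25) and -0.49 for Prtn3 (-1.08 to 0.09). Camp averaged 33915 ± 21704 in ANXA2 knockout libraries and 30805 ± 6835 in ANXA5 knockout libraries, a log2 difference of -0.03 (95% interval -0.88 to 0.81). The secondary and cytosolic genes had log2 differences of -0.23 (Ngp) to -0.03 (Camp). All 10 differences were below 0, with a median of -0.21, while 51% of all genes lay above 0. Camp, S100a8 and S100a9 lay above 0 with edgeR, and the median was 0.087 without ANXA2 knockout library 1 and -0.70 without ANXA2 knockout library 4. None of the 10 had separate groups, beside 12.6% of all genes. Because both knockouts were set against the same wild type libraries, their fold changes share that part of their error.

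**Figure D4:**
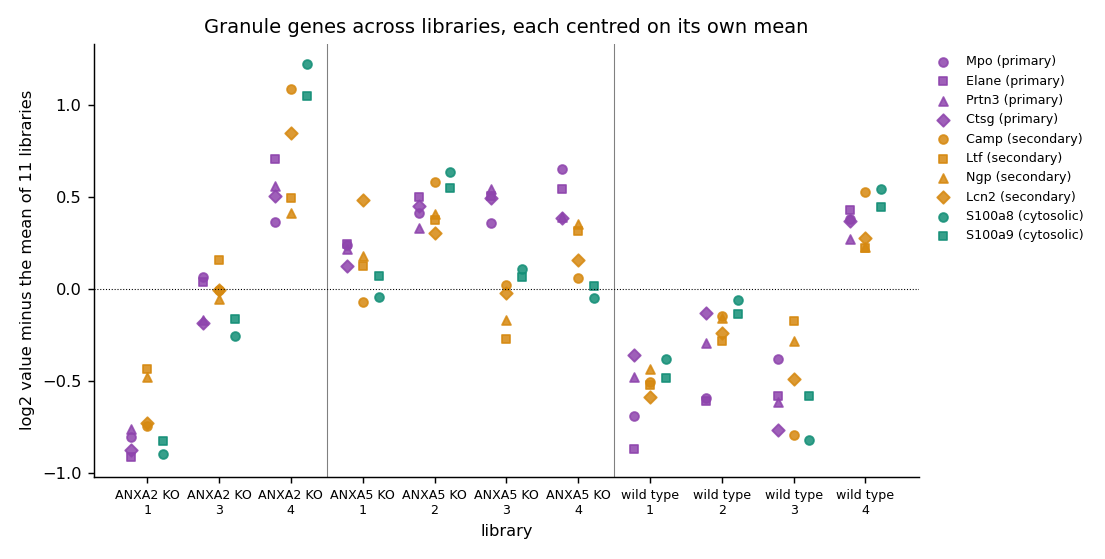
Log2 normalised reads of each granule gene, scaled over all 11 libraries and centred on the gene's own mean (vertical axis), by library (horizontal axis; ANXA2 knockout, ANXA5 knockout, wild type). Symbols mark genes and colours the granule class. ANXA2 knockout library 4 is the highest of the 11 for 9 genes, library 1 of that knockout the lowest for 8, and in ANXA5 knockout libraries 3 and 4 the primary granule genes lie above most of the others.

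Across the 11 libraries the 10 genes were high and low in much the same libraries. ANXA2 knockout library 4 was the highest of the 11 for 9 of the 10 genes (Mpo was highest in ANXA5 knockout library 4). ANXA2 knockout library 1 was the lowest for 8 of the 10, all but Camp and Ltf. The ratio of the highest to the lowest library was 4.35 for S100a8, 3.69 for Camp, 3.67 for S100a9 and 3.08 for Elane. It was 1.85 for Ngp and 2.02 for Ltf, the genes with the most reads.

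The primary granule genes held 17.0, 20.5 and 19.3% of the summed primary and secondary reads in ANXA2 knockout libraries 1, 3 and 4. In ANXA5 knockout libraries 1 to 4 they held 21.2, 20.6, 27.6 and 24.1%, and in wild type libraries 1 to 4 they held 18.05, 16.6, 18.8 and 21.8%. Means were 19.0 ± 1.78% in the ANXA2 knockout (SD, n = 3), 23.4 ± 3.19% in the ANXA5 knockout (SD, n = 4) and 18.8 ± 2.19% in the wild type (SD, n = 4). ANXA5 knockout libraries 3 and 4 had the highest shares, and libraries 1 and 2 lay below wild type library 4. No test was made of this share.

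Ratios between members of a class were taken within each library. S100a8 per S100a9, in normalised reads, was 0.584 ± 0.0623 in the ANXA2 knockout (SD, n = 3), 0.576 ± 0.0382 in the ANXA5 knockout (SD, n = 4) and 0.587 ± 0.0631 in the wild type (SD, n = 4). Elane per Mpo was 0.307 ± 0.0533 in the ANXA2 knockout, 0.297 ± 0.0226 in the ANXA5 knockout and 0.273 ± 0.0231 in the wild type. Camp per Ngp ran from 0.159 to 0.306 among ANXA2 knockout libraries, from 0.156 to 0.218 among ANXA5 knockout libraries and from 0.134 to 0.235 among wild type libraries. Prtn3 per Elane was 0.303 ± 0.0416 in the ANXA2 knockout, 0.299 ± 0.0206 in the ANXA5 knockout and 0.349 ± 0.0628 in the wild type. Ctsg per Mpo ran from 0.0290 to 0.0381 in ANXA2 knockout, 0.0287 to 0.0380 in ANXA5 knockout and 0.0264 to 0.0475 in wild type libraries.

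**Figure D5:**
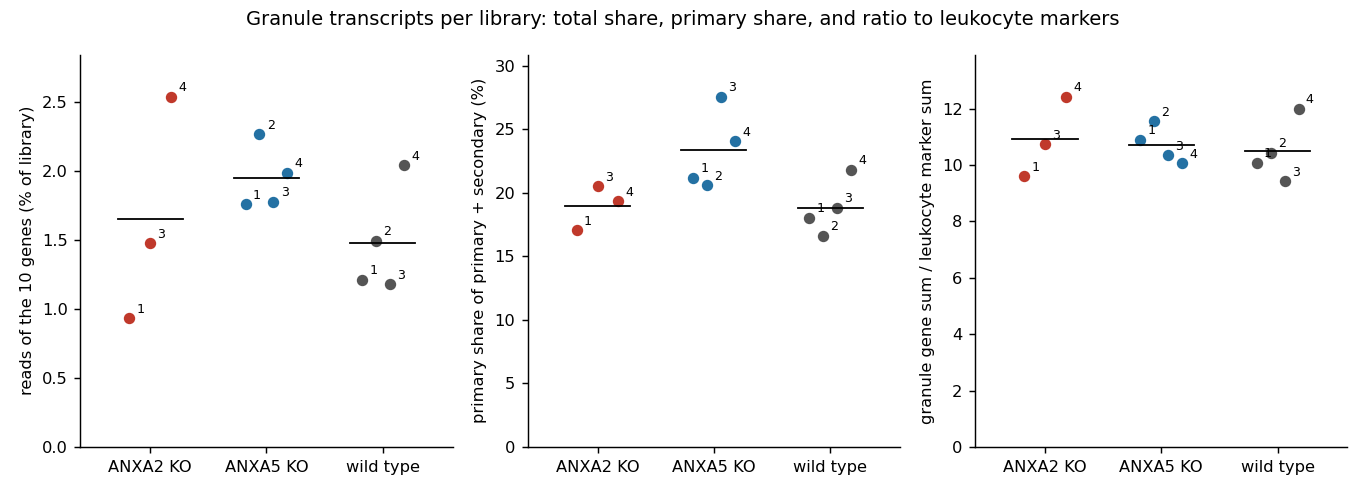
The 3 quantities by library (points, with library numbers) and group mean (lines) in ANXA2 knockout, ANXA5 knockout and wild type cultures: reads of the 10 granule genes as a percentage of the library, primary genes as a percentage of primary plus secondary reads, and the granule gene sum divided by the sum of 6 leukocyte markers. The first ranges from 0.933 to 2.54%, the second from 16.6 to 27.6% and the third from 9.43 to 12.4.

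Markers of all leukocytes, a class that includes neutrophils, also summed highest in ANXA2 knockout library 4. The summed normalised reads of 6 genes of all leukocytes were 30758 to 58387 in ANXA2 knockout libraries, 43698 to 55497 in ANXA5 knockout libraries and 31700 to 47551 in wild type libraries. The granule gene sum divided by this leukocyte sum was 9.61, 10.7 and 12.4 in ANXA2 knockout libraries 1, 3 and 4. In ANXA5 knockout libraries 1 to 4 it was 10.9, 11.6, 10.3 and 10.1, against 10.1, 10.4, 9.43 and 12.0 in wild type libraries 1 to 4. For this sum of all 10 genes the ANXA5 knockout values lay within the wild type range. Neutrophils are leukocytes too, so the leukocyte sum can hold their RNA, and a steady ratio is then partly built in. The primary granule sum per leukocyte sum averaged 1.63 ± 0.243 in the ANXA2 knockout, 1.99 ± 0.175 in the ANXA5 knockout and 1.56 ± 0.306 in the wild type. It ran from 1.84 to 2.22 in ANXA5 knockout and from 1.34 to 2.02 in wild type libraries, so the knockout range reached higher. The secondary granule sum per leukocyte sum averaged 6.92 ± 0.323 in the ANXA2 knockout, 6.56 ± 0.574 in the ANXA5 knockout and 6.69 ± 0.389 in the wild type. It ran from 5.84 to 7.09 in ANXA5 knockout and from 6.34 to 7.22 in wild type libraries.

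Of the 6 leukocyte markers, 0 passed the test in the ANXA5 knockout, and the median log2 fold change was 0.39. Among these 6, 4 had an unadjusted p under 0.05 and were higher, against 6.48% of all genes, while 0.0308% of all genes passed. Coro1a, an actin-binding protein of blood cells, averaged 19525 ± 1672 normalised reads in ANXA5 knockout libraries and 15141 ± 3319 in wild type libraries (SD, n = 4 each, all 11 libraries scaled together; log2 0.39, limma adjusted p = 0.371). At an unadjusted p under 0.05, 10 of 12 monocyte and macrophage markers were higher, against 6.48% of all genes. Of the 12, 0 passed, and the median was 0.43. Their sums were 9372 to 19755 in ANXA2 knockout libraries, 16912 to 19556 in ANXA5 knockout libraries and 11991 to 16339 in wild type libraries. The ANXA5 and wild type ranges of this sum thus lay close together without overlap, as did not overlap 6.37% of single genes. Csf1r, the receptor that macrophages need to survive, averaged 3022 ± 571 in ANXA5 knockout libraries and 2208 ± 156 in wild type libraries (log2 0.44, limma adjusted p = 0.2765). None of these 18 markers was at 0 in any library, the lowest value being 38.4 normalised reads for Fcgr1. This does not set them apart from other listed genes. Listed genes at 0 occurred only in wild type library 4 (188 genes, beside the ANXA2 knockout) and wild type library 3 (412 genes, beside the ANXA5 knockout). The part of these cells in the granule gene values was not tested.

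Of the marker lists, erythroid markers had the largest median difference between the knockouts. Their sums were 15829 to 34373 normalised reads in ANXA2 knockout libraries, 44473 to 79102 in ANXA5 knockout libraries and 17073 to 65193 in wild type libraries. All 8 were lower in the ANXA2 than in the ANXA5 knockout at an unadjusted p under 0.05, as were 1035 of 16791 genes tested. The median log2 difference of these 8 was -1.13, and 0 passed the adjusted test, against 0.298% of all genes. Endothelial markers had a median log2 fold change of 1.13 in the ANXA5 knockout, and 0 passed the adjusted test. At an unadjusted p under 0.05, 4 of 5 were higher and 1 of 5 lower, against 1052 and 884 of 16224 genes. Neutrophil markers outside the 10 members (Ly6g, Csf3r, Cxcr2, Mmp8 and Retnlg) summed to 25385 to 48250 in ANXA2 knockout libraries, 30630 to 48301 in ANXA5 knockout libraries and 22798 to 37805 in wild type libraries. Whether any of these cells had a part in the granule gene values was not tested.

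Median log2 fold changes of the other marker lists lay between -0.10 (B or plasma cell) and 0.33 (eosinophil, basophil or mast cell) in the ANXA2 knockout, apart from the erythroid list at -0.50. In the ANXA5 knockout the erythroid median was 0.60, the progenitor median 0.57 and the T or NK cell median 0.38. The megakaryocyte and stromal lists lay between 0.06 (B or plasma cell) and 0.23 (eosinophil, basophil or mast cell). Progenitor markers went both ways, 3 of 4 being higher at an unadjusted p under 0.05, against 6.48% of all genes. Cd34, the highest of them, had a log2 fold change of -0.39 (limma adjusted p = 0.4287). The progenitor sum averaged 29447 in ANXA5 knockout and 37655 in wild type libraries. The neutrophil list, which holds the 10 members, had a median of 0.20 in the ANXA2 knockout and of 0.44 in the ANXA5 knockout. No marker of any list passed the adjusted test in either knockout, by limma. Of the 8 B or plasma cell markers, 3 lay above 0 in the ANXA2 knockout, beside 54.1% of all genes. At an unadjusted p under 0.05, 2 were higher and 1 lower, against 749 and 652 of 16123 genes. Igkc, an immunoglobulin light chain of this list, had a log2 fold change of 0.70 in the ANXA2 knockout (limma adjusted p = 0.5095) and of 0.81 in the ANXA5 knockout (0.2314).

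Further genes of neutrophil development were followed in 4 lists. Of 27 other granule genes, 22 were tested in the ANXA5 knockout, 0 passed, and the median log2 fold change was 0.42. At an unadjusted p under 0.05, 11 were higher, against 6.48% of all genes. All 22 fold changes were above 0, beside 52% of those of all genes. Lyz2, lysozyme of myeloid cells, averaged 107074 ± 8924 normalised reads in ANXA5 knockout libraries and 78058 ± 17235 in wild type libraries (SD, n = 4 each; log2 0.48, limma adjusted p = 0.3627). Chil3, a chitinase-like granule protein of the mouse, averaged 43481 ± 11538 in ANXA5 knockout libraries and 28654 ± 6564 in wild type libraries (log2 0.58, limma adjusted p = 0.3739). In the ANXA2 knockout 23 genes of this list were tested, 0 passed, and the median was 0.23. Of these 23, 0 had an unadjusted p under 0.05, against 8.69% of all genes. Mature neutrophil receptors gave medians of 0.11 in the ANXA2 knockout and 0.31 in the ANXA5 knockout, and 0 of 15 passed in either. At an unadjusted p under 0.05, 1 of 15 was higher in the ANXA2 knockout, against 749 of 16123 genes. In the ANXA5 knockout 5 of 15 were, against 6.48% of genes. Retnlg, a resistin-like protein of neutrophils, averaged 16765 ± 2882 in ANXA5 knockout libraries and 12510 ± 3158 in wild type libraries (log2 0.44, limma adjusted p = 0.3869).

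Transcription factors of granulocyte development gave median log2 fold changes of 0.21 in the ANXA2 knockout and 0.28 in the ANXA5 knockout, and 0 passed in either. At an unadjusted p under 0.05, 3 of 11 were higher in the ANXA2 knockout, against 749 of 16123 genes. In the ANXA5 knockout 4 of 11 were, against 6.48% of genes. Cebpb, a C/EBP factor of emergency granulopoiesis that stromal cells also transcribe, averaged 48085 ± 4319 normalised reads in ANXA2 knockout libraries (SD, n = 3), 39417 ± 10460 in ANXA5 knockout libraries and 32067 ± 7435 in wild type libraries (SD, n = 4 each). The log2 fold changes were 0.61 in the ANXA2 knockout (limma adjusted p = 0.5234) and 0.28 in the ANXA5 knockout (0.6315). Cebpd, a related factor, had log2 fold changes of 0.57 in the ANXA2 knockout (limma adjusted p = 0.5727) and 0.12 in the ANXA5 knockout (0.8136).

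Growth factors and chemokines of neutrophils had medians on opposite sides of 0 in the knockouts, and 0 passed the test. In the ANXA2 knockout 5 of 12 were higher at an unadjusted p under 0.05, against 749 of 16123 genes. The median log2 fold change was 0.42. In the ANXA5 knockout 1 of 11 was higher and 3 of 11 were lower at that level, against 1052 and 884 of 16224 genes. The median there was -0.09. Tested directly, 5 of 12 were higher in the ANXA2 than in the ANXA5 knockout at an unadjusted p under 0.05, against 1241 of 16791 genes. Of the 12, 0 passed, and the median log2 difference was 0.63. Cxcl1, a chemokine that draws neutrophils, averaged 19250 ± 7907 normalised reads in ANXA2 knockout libraries (SD, n = 3), 7804 ± 3771 in ANXA5 knockout libraries and 12138 ± 3054 in wild type libraries (SD, n = 4 each). Its log2 fold changes were 0.62 in the ANXA2 knockout (limma adjusted p = 0.5783) and -0.71 in the ANXA5 knockout (0.3902). Cxcl12, which holds neutrophils in the marrow, had log2 fold changes of -0.24 in the ANXA2 knockout (limma adjusted p = 0.5875) and 0.12 in the ANXA5 knockout (0.8146).

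A list of protease inhibitors, not all of which act on the granule proteases, gave a median log2 fold change of 0.11 in the ANXA2 knockout. In the ANXA5 knockout the median was 0.32, and 0 passed. At an unadjusted p under 0.05, 3 of 10 were higher and 2 of 10 lower in the ANXA5 knockout, against 1052 and 884 of 16224 genes. Serping1, the C1 inhibitor, averaged 53643 ± 4918 normalised reads in ANXA5 knockout libraries and 71083 ± 12239 in wild type libraries (log2 -0.39, limma adjusted p = 0.3809). Receptors of granule proteins stayed near the median of all genes, at 0.02 in the ANXA2 knockout and 0.04 in the ANXA5 knockout, with 0 of 11 past the adjusted test in either.

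The genes with the profiles most like the mean of the 4 primary granule genes over the 11 libraries were Gm11505, Ms4a3, Siglecf, Nkg7 and Cst7. Likeness was the root mean square difference of centred log2 values, over 15926 genes. It was 0.0948 for Gm11505, 0.111 for Ms4a3, 0.118 for Siglecf, 0.124 for Nkg7 and 0.127 for Cst7, beside a median of 0.55 for all genes. Exons of Gm11505 overlap those of Mpo on the opposite strand, and those of Plppr3 overlap Prtn3. Whether the counting used strand is not given in the sources used here, so reads of these pairs cannot be told apart. Nearest to the mean of the 4 secondary granule genes were Fcer1g at 0.0683, Ifitm6 at 0.0732, Trem3 at 0.0807, Gmfg at 0.0966 and Ltb4r1 at 0.103, beside a median of 0.464 for all genes. Fcer1g is also 1 of the 6 leukocyte markers, and Ltb4r1 is on the list of mature neutrophil receptors. Of the genes nearest to the primary mean, Ms4a3 and Cst7 are on the list of other granule genes. Nkg7 is on that of T or NK cell markers.

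By position, several members are neighbours. Elane and Prtn3 on chromosome 10 have 0 protein-coding genes between them, and so do S100a8 and S100a9 on chromosome 3. Camp, Ngp and Ltf lie on chromosome 9, with 8 protein-coding genes between Camp and Ngp and 20 between Ngp and Ltf. Anxa2 is on the same chromosome, with 354 protein-coding genes between it and Camp, 363 between it and Ngp and 384 between it and Ltf. These 3 genes had log2 fold changes of 0.34, 0.12 and 0.26 in the ANXA2 knockout, and none passed the test. Mpo lies on chromosome 11, Ctsg on chromosome 14 and Lcn2 on chromosome 2.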

How the data were processed

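RNA of 11 untreated primary stromal cell libraries was analysed from 2 tables, each with 1 knockout and the same 4 wild type libraries. Per the labels, 8.7 ng of total RNA was used for each library. Tools in the submitters' processing notes are Trim Galore, STAR, HTSeq and DESeq2, on GRCm39, with versions not given in the sources used here. The signal in the tables the authors deposited is a count of reads over the DESeq2 size factor of the library, and undoing this division gave whole numbers for 100% of values, within 0.001. The log2 fold changes, p-values and Wald score columns the authors deposited come from DESeq2 per the file headers. The score was not used.

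Groups came from the labels. Because the values are scaled counts, limma 3.58.1 (trend, R 4.3.3) was run on log2(value + 1) over genes that reached 10 in a number of libraries equal to the smaller group, with two-sided p-values adjusted by Benjamini-Hochberg at 0.05. All 10 members passed this filter in every comparison, so no permutation test for genes under it was needed. The difference of the knockouts used recovered reads of all 11 libraries scaled by medians of ratios, over genes in both tables with at least 10 in at least 3 libraries. Levels over 3 groups also use that scale. Recovered reads were also tested with edgeR 4.0.16 quasi-likelihood and DESeq2 1.42.0. Other alternatives were pseudocounts of 0.5 and 5, no filter, a minimum of 50, TMM scaling, a replicate block and leaving out libraries. Each pair of replicates differed beyond counting noise, with chi-square over degrees of freedom at 26.8 or more.

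The genes named were the 10 members, the targets, the 2 genes with the highest mean of each list of related genes or markers (not all are printed), any that passed the test, and the 5 genes nearest to each mean profile. Members and lists were chosen with earlier results of these data known. Exon lengths, chromosomes, gene order and overlaps were taken from GENCODE vM21 (GRCm38, an older build than that of the tables), which matched 99.61% of identifiers in both. Promoters are those of RefSeq on GRCm38.p6. Depth was high for all members, and intervals cover the spread between libraries.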

Additional observations from a re-analysis of the deposited data

Results flagged for a closer look

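A single library stood apart from its group of 4 in 4 cases, measured as its gap to the nearest library divided by the range of the group. Chance flags about 1 in 20 groups, and members of the same libraries are not independent. For Elane, wild type library 4 was the highest, with a gap of 0.853 of the range in the table of the ANXA2 knockout and of 0.846 in the table of the ANXA5 knockout, which hold the same reads. In ANXA5 knockout cultures, library 2 was the highest for S100a9, with a gap of 0.914 of the range, and for Camp, with a gap of 0.832.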

How the results depend on the processing

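Across all alternatives run, 0 members passed the test in the ANXA2 knockout and in the difference between the knockouts, and 0 to 2 in the ANXA5 knockout when each library was left out, the 2 being Elane (log2 1.14) and Prtn3 (0.83) without wild type library 4. All 10 fold changes in the ANXA5 knockout kept their direction under every alternative run. Calls over all genes moved to 108 with DESeq2 in the ANXA2 knockout, in place of 18, and to 8 to 16 without 1 library. They moved to 278 with DESeq2 in the ANXA5 knockout, in place of 5, and to 4 to 32 without 1 library, and for the difference to 20 to 54, in place of 50. The cause was not tested.

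Without 1 library each, log2 values in the ANXA2 knockout spanned 0 for all members but Ltf: -0.051 to 0.53 for Mpo, -0.032 to 0.78 for Elane, -0.19 to 0.47 for Prtn3, -0.31 to 0.38 for Ctsg, -0.15 to 0.77 for Camp, -0.11 to 0.34 for Ngp, -0.11 to 0.68 for Lcn2, -0.40 to 0.66 for S100a8, -0.31 to 0.63 for S100a9, and -0.13 to 0.58 for the median. The lowest came without knockout library 4 and the highest without knockout library 1. Without libraries 4 of both groups, a choice made after seeing the data, 4 members turned, Prtn3 (-0.0042), Ctsg (-0.11), S100a8 (-0.16) and S100a9 (-0.097), and the other 6 stayed above 0, at 0.02 (Ngp) to 0.25 (Elane), with a median of 0.045. The difference of the knockouts turned with edgeR for Camp (0.12), S100a8 (0.099) and S100a9 (0.023). Without 1 library each it was -0.52 to 0.39 for Camp, -0.27 to 0.19 for Ltf, -0.60 to 0.19 for Lcn2, -0.74 to 0.32 for S100a8, -0.67 to 0.27 for S100a9 and -0.70 to 0.087 for the median.

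With the replicate number as a block in the ANXA5 comparison, 0 members passed (smallest adjusted p = 0.2136) and 8 genes in all. Deviations of same-numbered libraries correlated across genes at 0.049, -0.075, -0.252 and 0.067, and 0 of 4 knockout libraries correlated best with their own number. This gave no sign of pairing by number, but such values cannot exclude a shared origin, which the labels do not give. No paired analysis was possible because ANXA2 columns carry other numbers than the titles, for both comparisons with that knockout. With 3 or 4 libraries a group, the 95% interval in the ANXA2 knockout ran from -0.90 to 1.30 for S100a8 and from -0.37 to 0.89 for Ltf, the members with the largest and smallest SE.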
